A study of Rattus norvegicus with 14 samples.

Results

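The control arm of a developmental toxicity study in rats consisted of 3 vehicle litters, chosen as the libraries labelled with a dose of 0 mg/kg-day, out of 14 libraries in all. Their dams were pregnant Harlan Sprague Dawley rats given laboratory-grade corn oil by oral gavage from gestational day 14 to 18, with no other agent, allele or deletion named in the labels. On gestational day 18 the testes of the male fetuses were taken, combined within each litter and homogenised, after 3 testes of each litter had been set aside for testosterone measurement. The number of testes in each homogenate is not given. Each library is 1 litter, so differences between fetuses of a litter cannot be seen. No litter has a repeat library, so the spread between litters also holds any difference from handling, library preparation or batch. The labels name no batch. The remaining libraries came from dams given dicyclohexyl phthalate and are not used here.

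RNA was measured by TempO-Seq, a targeted form of RNA sequencing in which pairs of detector oligonucleotides are ligated on each transcript and then counted, with a design that targets 21119 rat genes. The deposited table has 18174 gene rows. The libraries held 10043652, 10198123 and 8946454 estimated counts in litters 1, 2 and 3, where the numbers follow only the order of the samples. Levels are given as CPM, attenuation-adjusted counts relative to the library total, scaled by TMM factors of 1.03, 0.992 and 0.982, and a floor of 3 counts corresponds to 0.289, 0.294 and 0.338 CPM. A CPM value reflects the probe of a gene as well as the abundance of its RNA, so ranks of different genes are ranks of probe signal, and the share due to the probe was not tested. The libraries form 1 group with no contrast, so no p-value is given, and differences between litters are described by their size. Litters 1 and 2 were the least alike, with at least a 2-fold difference in 1660 genes, and litter 1 carried the most signal of red cell genes, with a sum of 45618 CPM against 16502 and 23208 CPM, so the gonocyte and erythroid medians and the measures of spread are also given without it.

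The fetal testis is built from seminiferous cords, in which Sertoli cells enclose the gonocytes, the fetal germ cells, and from an interstitium with vessels, macrophages, progenitor cells and fetal Leydig cells. Leydig cells take up or make cholesterol, import it into mitochondria and turn it into androgens, and they secrete insulin-like peptide 3, the product of Insl3, which acts on the gubernaculum in testis descent. Sertoli cells secrete anti-Müllerian hormone and Desert hedgehog, the latter acting on the interstitium.

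In the vehicle litters 11038 of 18174 gene rows (60.7%) stood at 1 CPM or more in all 3 libraries, 6837 at 10 CPM or more, 1618 at 100 CPM or more and 100 at 1000 CPM or more. The 10 most abundant genes held 9.03% ± 0.0926 of the adjusted counts (SD, n = 3), the 100 most abundant 29.8% ± 0.217 and the 1000 most abundant 64.8% ± 1.06. Gene rows without a name in the table held 14.7%, 16.2% and 16.3% of the counts in litters 1, 2 and 3 and took 7 of the 25 highest places. Pseudogene rows held 2.68%, 3.31% and 3.30%.

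**Figure D1:**
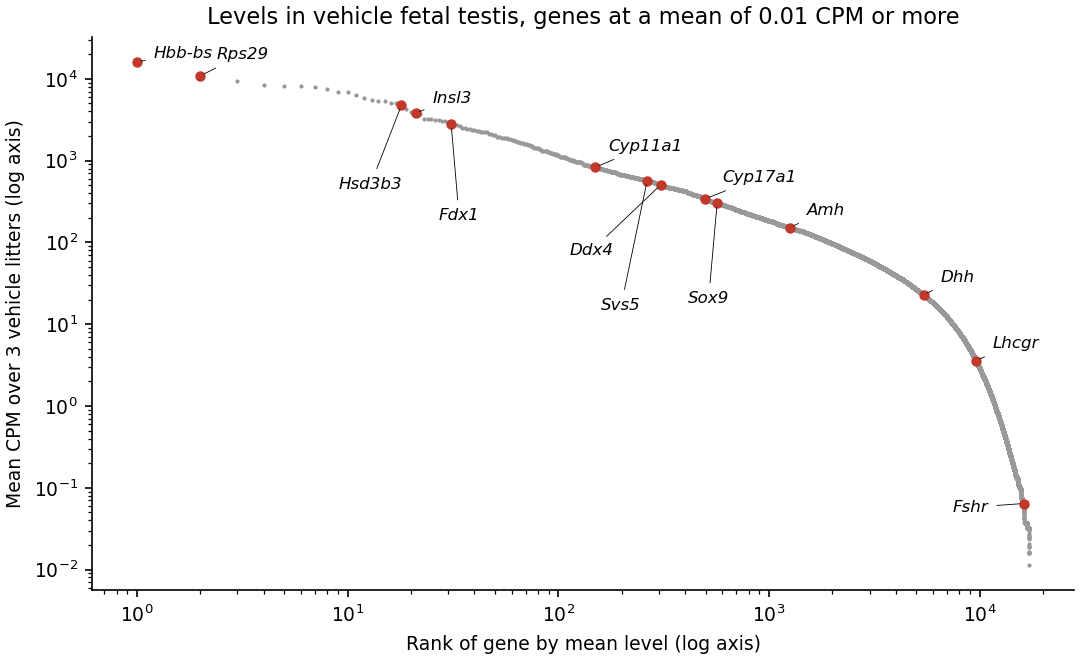
Mean level of each gene row in the 3 vehicle litters (CPM, log axis) against its rank (log axis), with rows under 0.01 CPM left out. Red points mark named genes, from Hbb-bs at rank 1 and a mean of 16115 CPM, through Hsd3b3, Insl3 and Fdx1 at ranks 18, 21 and 31, to Lhcgr at rank 9590 and Fshr at rank 16167.

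The 25 named genes with the highest means are described by their leading members. Hbb-bs, a beta-globin gene (rn7 chromosome 1, 158250640 to 158251955, as the table gives it), was at 27603, 7706 and 13035 CPM in litters 1, 2 and 3. It led the ranking in its mean and differed 3.58-fold between the highest and the lowest litter. Rps29, a protein of the small ribosomal subunit (chromosome 6, 87635230 to 87636637), was at 10824, 10809 and 11152 CPM, a coefficient of variation (CV, SD over mean) of 1.78%. The linker histone genes H1f2 and H1f4 had means of 9341 and 6973 CPM, and the core histone gene Hist1h2ac one of 6937 CPM. Eef1a1, the translation elongation factor, was at 5186, 9782 and 8986 CPM. Cpa1, a carboxypeptidase best known as a digestive enzyme of the pancreas (chromosome 4, 59257417 to 59263545), was at 5347, 5589 and 6549 CPM, rank 12, and varied little between litters. The fibrillar collagen genes Col1a2 and Col3a1 had means of 3700 and 3178 CPM. Col1a2 stayed between 3422 and 4018 CPM, whereas Col3a1 was at 5166, 1725 and 2641 CPM with litter 1 highest. Col1a1, not among the 25, was at only 3.76, 2.84 and 1.92 CPM, and the part of the probe in this was not tested. Near-identical copies blur some of these values. A pseudogene row on chromosome X (ENSRNOG00000056855) followed Eef1a1 at 3.06, 3.02 and 3.04 times its unadjusted level, 3 of the 4 rows named Rpl38 held identical values, and counts of the globin genes can be shared among paralogs in the same way.

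For 16 genes the assay lowers the signal on purpose, and the submitters multiplied their counts by 2 (8 genes), 3 (5 genes), 4 (2 genes) or 9 (1 gene). In these fetal testes 11 of the 16 had a mean under 10 CPM after the adjustment. Means this low were common among all 18174 gene rows, where Gata2, with a mean of 9.98 CPM, held rank 7463. Among the 11, Alb, serum albumin, was at 0.385, 0.391 and 1.80 CPM, from 1, 1 and 4 counts before its factor of 4. Apoa1, the main HDL apolipoprotein, whose factor was 9, was another, at 8.67, 8.81 and 5.08 CPM. It had 10, 10 and 5 counts before the adjustment. For these 16 genes the floor refers to multiplied counts, so fewer than 3 counts can lie above it. Attenuation mattered for 4 genes at 100 CPM or more. Eef1a1 moved from rank 33 to 7, and Fth1, the heavy chain of the iron store ferritin, from rank 36 to 17, at 3814, 5655 and 5586 CPM. Acaa2, a thiolase of mitochondrial fatty acid oxidation, moved from rank 614 to 142, at 852 ± 73.8 CPM (SD, n = 3). Apoe, the apolipoprotein that docks lipoproteins to their receptors, moved from rank 2589 to 1350, at 178, 107 and 145 CPM. The adjustment added 0.626%, 0.998% and 0.943% to the counts of the libraries.

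Genes of androgen synthesis gave some of the highest signals in the control testis, with Hsd3b3 at rank 18 and Fdx1 at rank 31. Of the 16 gene rows of the testosterone synthesis list, 15 reached a mean of 10 counts and 14 were at 1 CPM or more in every litter, against 60.7% of all rows. The chain starts with Star, which carries cholesterol into mitochondria and was at 333, 205 and 280 CPM. Cyp11a1, the side-chain cleavage enzyme that makes pregnenolone, was at 676, 1065 and 750 CPM. Star was highest in litter 1, where Cyp11a1 was lowest, and lowest in litter 2, where Cyp11a1 was highest. Fdx1, the ferredoxin that hands electrons to mitochondrial P450 enzymes, was at 2387, 3432 and 2507 CPM, and Fdxr, which reduces it, at 210, 155 and 136 CPM.

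In the Leydig cell list, Insl3, Fdx1 and Cyp11a1 gave the highest signal. These and Hsd3b3, 4 genes in all, had the order litter 2, then 3, then 1. That order was shared by 26.4% of the 11817 genes with a mean of at least 10 counts. Of the 21 Leydig cell rows at this minimum, 7 were highest in litter 1, 9 in litter 2 and 5 in litter 3. The shares of all genes were 41.1%, 36.5% and 22.4%. Star and Cyp17a1 had no promoter window available. The windows of the 4 genes are shown as sequence, and a link between sequence and litter order was not tested. Each runs 5′ to 3′ from 250 bases before to 50 bases after the gene start of RefSeq on build GRCr8, and capitals mark each AGGTCA on either strand (TGACCT where it lies on the other strand), the half-site bound by many nuclear receptors including steroidogenic factor 1. The windows are Insl3 at chr16:18432939-18433238 (plus strand), Hsd3b3 at chr2:188832685-188832984 (minus), Fdx1 at chr8:61183596-61183895 (minus) and Cyp11a1 at chr8:67318415-67318714 (plus).
Insl3: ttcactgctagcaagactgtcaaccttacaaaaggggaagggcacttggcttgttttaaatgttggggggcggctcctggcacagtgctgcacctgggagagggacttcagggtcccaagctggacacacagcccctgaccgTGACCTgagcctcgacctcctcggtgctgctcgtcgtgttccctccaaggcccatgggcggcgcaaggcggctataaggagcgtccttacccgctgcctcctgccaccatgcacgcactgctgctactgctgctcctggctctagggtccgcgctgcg
Hsd3b3: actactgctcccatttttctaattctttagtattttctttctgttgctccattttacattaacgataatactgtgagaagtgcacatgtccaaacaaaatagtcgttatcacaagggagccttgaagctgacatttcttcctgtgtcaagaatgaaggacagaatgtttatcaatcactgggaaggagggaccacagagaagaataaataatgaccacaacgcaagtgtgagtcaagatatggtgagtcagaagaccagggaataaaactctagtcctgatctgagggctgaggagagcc
Fdx1: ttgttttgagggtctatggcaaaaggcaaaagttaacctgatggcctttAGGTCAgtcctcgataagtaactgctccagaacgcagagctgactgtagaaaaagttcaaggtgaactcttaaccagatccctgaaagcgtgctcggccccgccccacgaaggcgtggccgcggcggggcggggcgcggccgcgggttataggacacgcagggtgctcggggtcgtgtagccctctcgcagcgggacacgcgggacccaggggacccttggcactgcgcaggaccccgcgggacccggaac
Cyp11a1: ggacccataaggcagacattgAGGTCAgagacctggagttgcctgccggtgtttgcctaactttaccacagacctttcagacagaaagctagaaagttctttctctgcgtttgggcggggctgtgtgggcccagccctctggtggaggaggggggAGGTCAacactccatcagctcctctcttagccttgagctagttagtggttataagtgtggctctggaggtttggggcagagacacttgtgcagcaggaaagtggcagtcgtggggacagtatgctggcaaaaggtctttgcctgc

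The first base of the match lay at -108 in Insl3, at -201 in Fdx1 and at -229 and -95 in Cyp11a1, counted from the gene start, and the Hsd3b3 window held none. The longer form AAGGTCA was searched first, on both strands. It was in 0 of the 11 testosterone synthesis windows that matched by symbol and 0 of 15 Leydig cell windows. The Sertoli cell list had it in 2 of 19 windows and the gonocyte list in 0 of 19, against 4.61% of all 33469 windows. AGGTCA, which is contained in it, was searched after that result was seen. It was in 4 of 11 testosterone synthesis windows, 6 of 15 Leydig cell windows, 6 of 19 Sertoli cell windows and 1 of 19 gonocyte windows, against 16.2% of all windows. A match here is a string of letters and not a shown binding site.

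Further down the chain, Cyp17a1, the enzyme that commits progestins to androgens, was at 216, 514 and 296 CPM. Litter 2 stood 2.38-fold above litter 1, and the rank of Cyp17a1 was 499. Cyb5a, the cytochrome b5 that favours the lyase step of that enzyme, was at 158, 239 and 204 CPM with the same order of litters. Por, the reductase that supplies it with electrons, was at 2.12, 0.881 and 1.69 CPM. Hsd3b3, a 3-beta-hydroxysteroid dehydrogenase, was at 3984, 5388 and 4844 CPM, while its paralogs Hsd3b1 and Hsd3b2 had means of 4.01 and 2.27 CPM, with the reservation that probes of such close copies may not separate them. Hsd17b3, which makes testosterone from androstenedione and in the fetal mouse is placed in Sertoli cells, was at 272, 287 and 263 CPM, a CV of 4.34%. Nr5a1, the gene of steroidogenic factor 1, was at 164, 112 and 113 CPM. Srd5a1, the 5-alpha-reductase, was at 8.67, 1.96 and 2.59 CPM, and Cyp19a1, aromatase, had counts in litter 1 alone, at 0.193 CPM, which is below the floor.

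Outside the enzyme chain, Insl3 was at 2208, 5770 and 3398 CPM, a mean of 3792 ± 1813 CPM (SD, n = 3). Its range of 2.61-fold between litters was wider than that of Cyp11a1, at 1.58-fold, and close to that of Cyp17a1. Inha, the inhibin alpha subunit, was at 167, 222 and 190 CPM. Ptch1, the hedgehog receptor that Leydig cells and their progenitors carry, was at 373, 367 and 359 CPM, so it showed almost no spread, while Gli1, a hedgehog target and transcription factor, was at 21.4, 39.1 and 22.9 CPM. Lhcgr, the receptor for luteinizing hormone, had a mean of only 3.59 ± 1.12 CPM (SD, n = 3), and its highest litter, litter 3, was at 4.85 CPM. The 23 gene rows of the Leydig cell list summed to 6919, 12036 and 8260 CPM, most of it from Insl3 and Fdx1. The median log2 level of its members against the mean of the 3 litters was -0.20, -0.02 and -0.05, so litters 2 and 3 were closer by the median than by the sum. In pooled tissue fewer cells of a type and less RNA per cell cannot be told apart, and this holds for every list below.

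**Figure D2:**
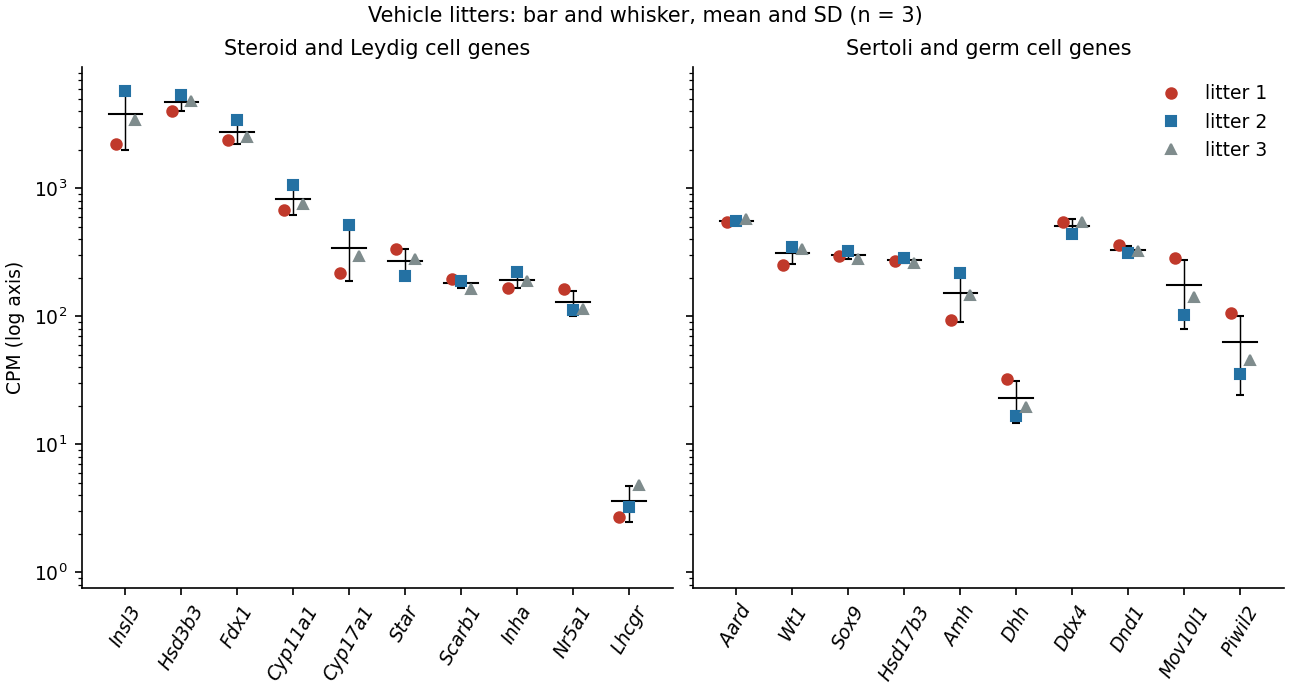
Level of 20 testis genes in each vehicle litter (CPM, log axis), with symbols for the litters, a bar for the mean and whiskers for the SD (n = 3). Insl3, Cyp17a1 and Amh spread over more than 2-fold with litter 2 highest, Mov10l1 and Piwil2 over more than 2-fold with litter 1 highest, and Aard, Hsd17b3 and Sox9 stay close together.

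Among cholesterol genes, 20 of 22 rows reached the count minimum, against 11817 of all 18174 rows. Insig1, which holds back sterol synthesis when cholesterol is plentiful, was at 379, 710 and 655 CPM. Litter 1 was the lowest here, as it was in 11 of the 20 rows, against 39.1% of all genes. Litter 3 was the highest in 9 of the 20 rows, against 22.4% of all genes. Sqle and Fdft1, which act around squalene, had means of 233 and 206 CPM with CVs of 6.90% and 5.39%. Of the uptake genes, Scarb1, the HDL receptor, was at 195, 188 and 163 CPM.

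The Sertoli cell list summed to 2381, 2681 and 2448 CPM, and 20 of its 24 rows were at 1 CPM or more in every litter, against 60.7% of all rows. Sox9, the transcription factor that sets Sertoli cell fate, was at 295, 326 and 282 CPM, and Wt1, which acts before and beside it, at 251, 351 and 333 CPM. Both stayed within 1.40-fold. Amh, anti-Müllerian hormone, was at 93.1, 217 and 146 CPM, so litter 2 stood 2.33-fold above litter 1. Dhh, Desert hedgehog, went the other way, at 32.3, 16.6 and 19.6 CPM with litter 1 highest. Aard, named in the list as a Sertoli cell marker, was the most abundant member at 543, 554 and 580 CPM. Fshr, the receptor for follicle-stimulating hormone, had counts in litter 1 alone, at 0.193 CPM, below the floor, and Dmrt1, a transcription factor of Sertoli and germ cells, was at 9.54, 2.25 and 2.48 CPM with litter 1 highest.

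The gonocyte list summed to 2106, 1563 and 1770 CPM over 24 gene rows. Ddx4, the vasa helicase that marks germ cells, was at 547, 437 and 544 CPM, and Dnd1, an RNA-binding protein needed for germ cell survival, at 358, 312 and 323 CPM. Of the piRNA pathway genes, Mov10l1, at 287, 103 and 141 CPM, and Piwil2, at 107, 35.6 and 45.5 CPM, were highest in litter 1. Their ranges were 2.80-fold and 3.00-fold. Mael, at 65.1, 101 and 85.6 CPM, and Piwil4, at 45.7, 57.8 and 39.7 CPM, of the same pathway, were highest in litter 2. In the gonocyte list 14 of the 21 rows at the count minimum were highest in litter 1, against 41.1% of all genes, and 14 were lowest in litter 2, against 38% of all genes. The median log2 level of the list against the mean of the 3 litters was 0.17, -0.18 and -0.03 in litters 1, 2 and 3, a distance of 0.34 between the highest and the lowest, which was 0.15 without litter 1 and 0.18 without litter 2. Pou5f1, the pluripotency factor, was at 2.41, 2.45 and 2.48 CPM, and Dazl, a germ cell RNA-binding protein, at 0.385, 0.294 and 0.564 CPM.

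The list of meiotic and later germ cells summed to 266, 287 and 285 CPM over 23 gene rows. Odf2, a protein of centrosomes and the sperm tail, was at 113, 104 and 110 CPM. Sycp1 and Sycp3, both of the synaptonemal complex, were at 47.2, 58.4 and 59.2 CPM and at 10.4, 35.8 and 27.5 CPM. Stra8, the gate to meiosis, was at 0.193 CPM in litter 1 and 0 in the other two, and Prm2, the protamine of spermatid chromatin, had counts in litter 3 alone, at 0.113 CPM, both below the floor. Spam1, a sperm surface hyaluronidase, was at 0 in all 3.

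Markers of other cell types were checked on the same scale. Smooth muscle and peritubular genes summed to 988, 1220 and 1136 CPM, with Acta2, smooth muscle actin, at 106, 150 and 127 CPM, but Myh11, smooth muscle myosin, had a mean of 0.797 CPM. Endothelial genes summed to 421, 524 and 470 CPM, led by Cdh5, vascular cadherin, at 137, 200 and 151 CPM. Macrophage genes summed to 66.4, 71.8 and 71.5 CPM, and 8 of 16 rows were at 1 CPM or more in every litter, against 60.7% of all rows. Aif1 led them at 20.4, 17.4 and 20.9 CPM, while Csf1r, the receptor that defines the lineage, was at 0.867, 1.17 and 2.26 CPM. Of neighbouring or foreign tissues, the mesonephros and duct list summed to 862, 808 and 825 CPM. Most of this was Svs5, a seminal vesicle secretory protein gene, at 602, 545 and 565 CPM. Of the 16 rows of this list, 11 were at 1 CPM or more in every litter, against 60.7% of all rows. Among them Hoxd9, Epcam and Krt8 had means of 105, 67.9 and 43.5 CPM. The other 5 stayed under the floor, and of these Pax2, a defining factor of the duct, was at 0 in all 3 litters. Liver, skeletal muscle and adrenal cortex lists summed to no more than 18.3, 54.0 and 7.35 CPM in any litter. In the ovary list Zp2, an egg coat glycoprotein gene, stood out at 160, 154 and 157 CPM, whereas Foxl2, the granulosa cell factor, was at 0.482, 0.294 and 0.113 CPM and Gdf9, an oocyte factor, at 0 in litters 1 and 2. All 3 pools are labelled male, and the Y-linked gene Eif2s3y was at 173, 184 and 224 CPM and Usp9y was at 32.8, 196 and 107 CPM.

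**Figure D3:**
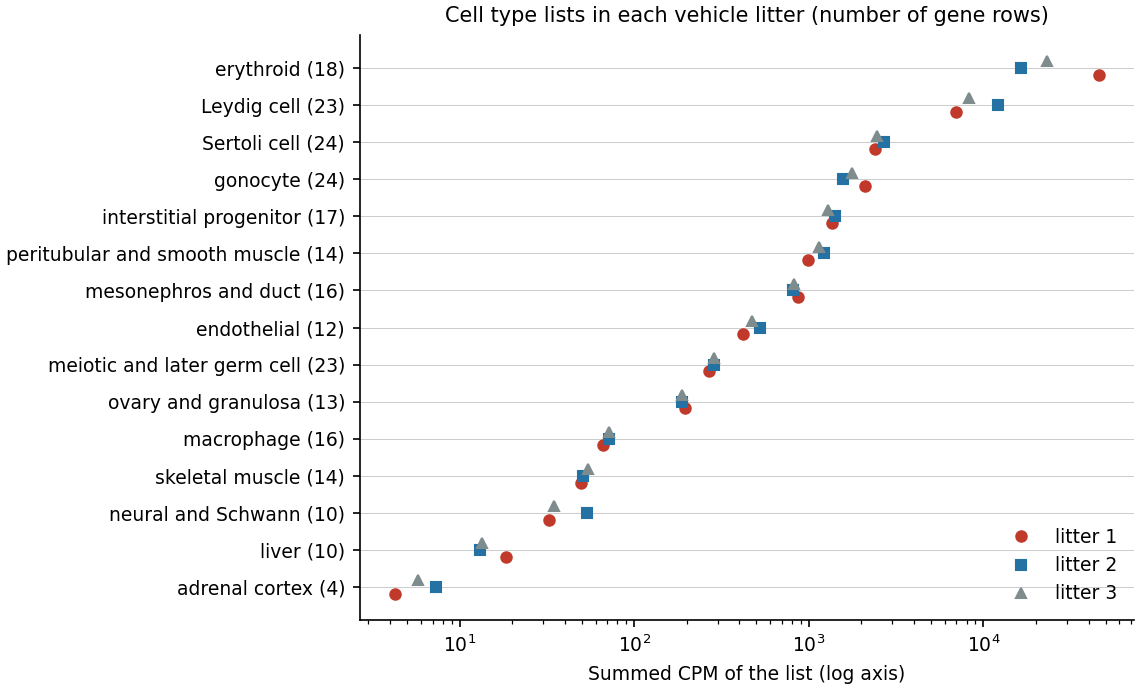
Summed level of each cell type list in each vehicle litter (CPM, log axis), with the number of gene rows in brackets and symbols for the litters. The erythroid sum runs from 16502 to 45618 CPM with litter 1 far to the right, the Leydig cell sum from 6919 to 12036 CPM with litter 2 to the right, and the Sertoli cell sum from 2381 to 2681 CPM.

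By the distance between litter medians, erythroid genes separated the litters more than any other list with at least 10 rows at the count minimum. The 18 erythroid gene rows summed to 45618, 16502 and 23208 CPM, a 2.76-fold range, and 16 of the 17 rows at the count minimum were highest in litter 1, against 41.1% of all genes. At least a 2-fold range was seen in 13 of these 17 (76.5%), against 17.2% of all genes. Hba-a2, an alpha-globin gene, was at 4591, 2118 and 2132 CPM. Hbe1, an embryonic beta-type globin gene, was at 3552, 1434 and 1982 CPM. Slc4a1, the band 3 anion exchanger of the red cell membrane, was at 120, 44.6 and 39.7 CPM, and Ahsp, the alpha-globin chaperone, at 101, 18.8 and 25.2 CPM. Litter 1 stood above both others in each of these 4 genes, and Ahsp reached a 5.38-fold range. Tfrc, the transferrin receptor that dividing cells of many types also carry, was at 67.6, 58.2 and 61.7 CPM. The median log2 level of the list was 0.71, -0.38 and -0.32 in the 3 litters, a distance of 1.09, and without litter 1 it was 0.10. Litter 1 was also the litter with the lowest Insl3, Cyp17a1 and Amh and the highest median of the gonocyte list, and the part of blood RNA in those values was not tested.

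**Figure D4:**
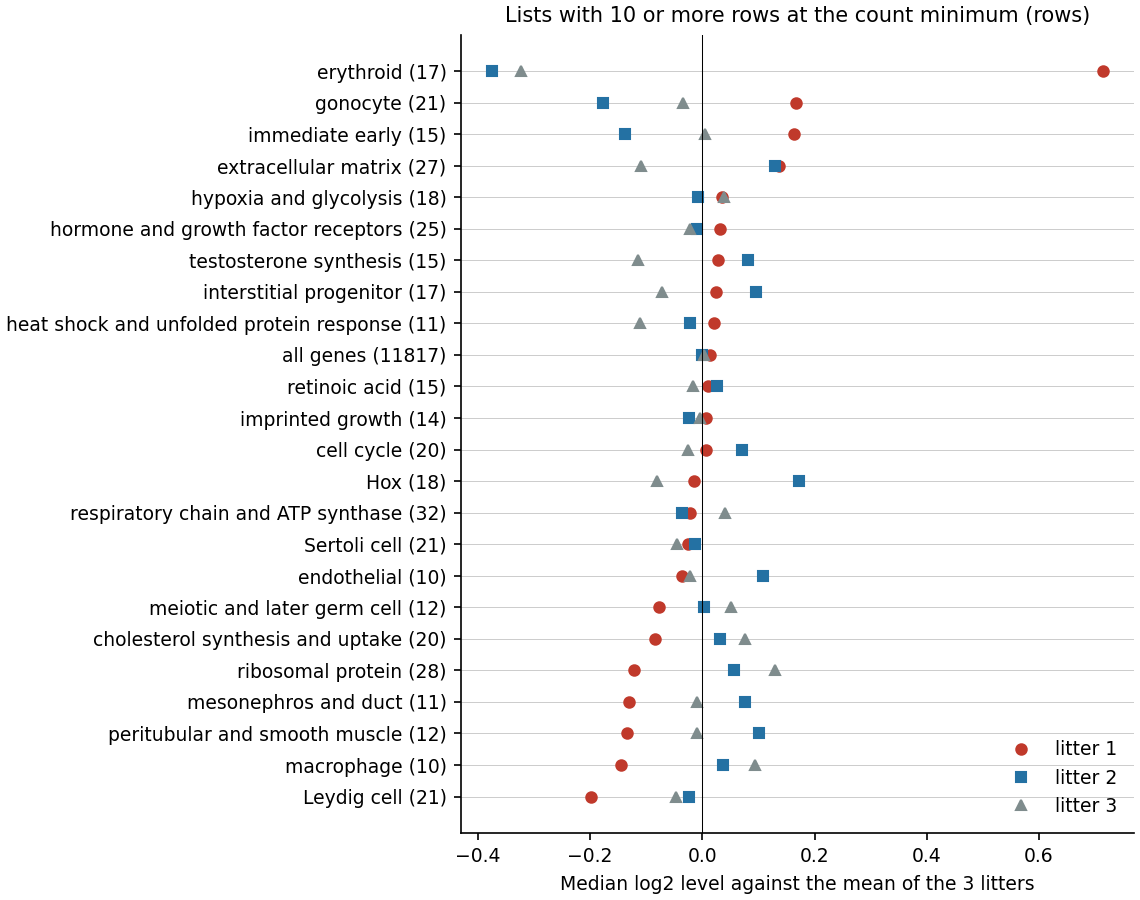
Median log2(CPM + 0.5) of each list in each litter, taken against the mean of the 3 litters, for lists with at least 10 rows at the count minimum (number in brackets). Litter 1 lies at 0.71 for erythroid genes, 0.17 for gonocyte genes and -0.20 for Leydig cell genes, while the medians of all genes lie close to 0, at 0.01 in litter 1.

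The remaining lists moved less. Among extracellular matrix genes, 12 of 27 rows were highest in litter 1 and 15 in litter 2, against 41.1% and 36.5% of all genes, and 15 were lowest in litter 3, against 22.9% of all genes. The list median was 0.14, 0.13 and -0.11, a distance of 0.25, and it was 0.12 without litter 3. Sparc, a matrix protein of basement membranes and bone, was at 448, 223 and 350 CPM, and Lamb1, a laminin chain, went the opposite way at 84.2, 281 and 178 CPM. Ribosomal protein genes summed to 36348, 41280 and 42638 CPM, and litter 1 was lowest in 18 of 28 rows, against 39.1% of all genes. Respiratory chain and ATP synthase genes summed to 10323, 10932 and 11714 CPM. Retinoic acid genes summed to 1924, 2001 and 1946 CPM, led by the binding protein gene Crabp2, at 699, 751 and 750 CPM, and by the synthesis enzyme genes Aldh1a1, at 628, 514 and 480 CPM, and Aldh1a2, at 244, 347 and 366 CPM. Cyp26b1, which breaks retinoic acid down and keeps fetal germ cells of the mouse out of meiosis, was at 23.1, 22.3 and 20.3 CPM. Of the imprinted growth genes, Mest was at 763, 399 and 442 CPM, Igf2, insulin-like growth factor 2, at 328, 388 and 304 CPM, and Grb10, an adaptor that restrains growth, at 29.6, 29.8 and 29.7 CPM. Cell cycle genes showed the proliferation marker Mki67 at 492, 549 and 519 CPM, whereas Kif11, a spindle motor, was at 0 in all litters.

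Interstitial progenitor genes had 6 of 17 rows (35.3%) with at least a 2-fold range, against 17.2% of all genes, in both directions. Of these, Nr2f1, Lum and Igf1 had means of 10 to 50 counts, where 29.3% of all genes had such a range. Dcn, decorin, was at 95.3, 48.9 and 39.5 CPM, highest in litter 1. Pdgfrb, a receptor for platelet-derived growth factor, was at 9.35, 20.1 and 13.5 CPM and lowest there. Hox genes, which pattern the body axis, had 6 of 18 rows (33.3%) with at least a 2-fold range, against 17.2% of all genes. Of these, Hoxa3, Hoxb3 and Hoxd8 had means of 10 to 50 counts, where 29.3% of all genes had such a range. Hoxc6, Hoxc5 and Hoxa5 had means of 1189, 225 and 53.3 counts. In the count ranges that hold them, 6.86%, 12.0% and 18.4% of all genes had one. Hoxc6 was at 65.8, 154 and 148 CPM, Hoxd9 at 92.7, 119 and 104 CPM and Hoxc5 at 31.2, 10.4 and 27.5 CPM.

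Across all 11817 genes at the count minimum, the common biological coefficient of variation between litters, the spread beyond counting error as edgeR estimates it, was 0.269, with any difference from library preparation included. It was 0.189, 0.237 and 0.344 without litter 1, 2 and 3. With a mean of 10 to 50 counts the median CV was 32.4%, against 20.9% from counting error alone, and with 1000 to 10000 counts it was 14.0% against 2.36%. Of the 8935 genes with a mean of at least 50 counts, 576 had a CV under 5% and 15 one over 100%.

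A range of at least 2-fold between the highest and the lowest litter, on log2(CPM + 0.5), was met by 2029 of 11817 genes (17.2%), and by 491, 715 and 1699 without litter 1, 2 and 3. Litters 1 and 2 differed by at least 2-fold in 1660 genes (14.0%), litters 1 and 3 in 711 (6.02%) and litters 2 and 3 in 507 (4.29%). Pearson's r of log2 levels across genes, which are not independent replicates, was 0.950, 0.973 and 0.979 for the same pairs. Litter 1 was the highest of the 3 in 41.1% of genes and the lowest in 39.1%, litter 2 the highest in 36.5% and the lowest in 38%, and litter 3 the highest in 22.4% and the lowest in 22.9%. Litter 3 therefore lay between the others in 54.7% of all genes and in 1487 of the 2029 genes (73.3%) with a 2-fold range. In a check for duplicate libraries, the median chi-square per gene was 8.44, 4.47 and 2.75 for these pairs, which gave no sign of a duplicate.

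**Figure D5:**
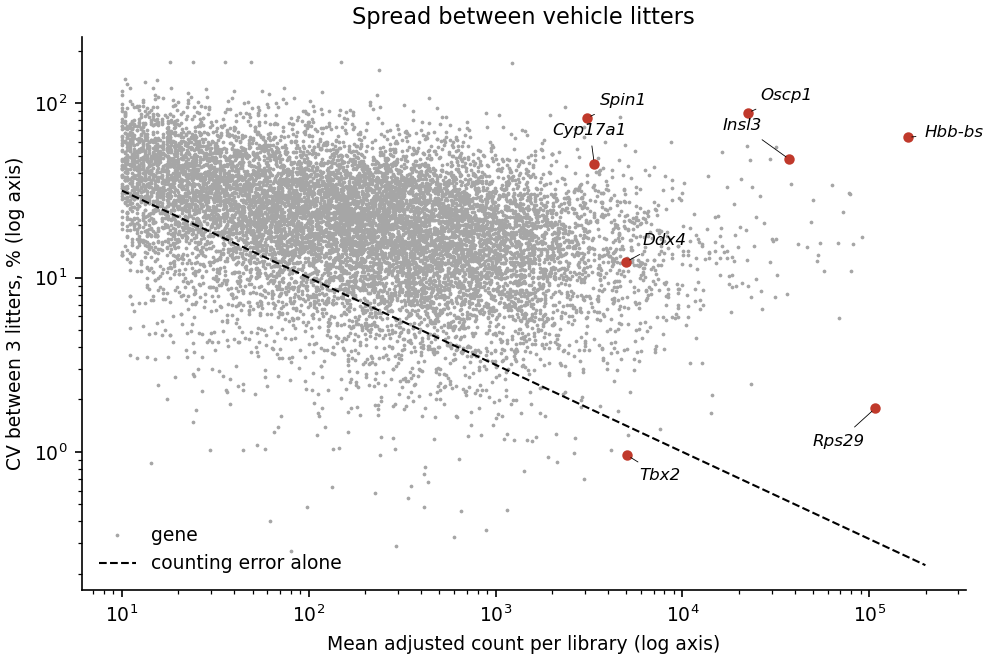
CV between the 3 vehicle litters (percent, log axis) of each gene with a mean of at least 10 counts, against its mean adjusted count per library (log axis). The dashed line is the CV from counting error alone, and most genes lie above it, with Hbb-bs at 63.9%, Insl3 at 47.8% and Rps29 at 1.78%.

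The genes with the widest range, among those with a mean of at least 50 counts, differed by more than 10-fold, and in several of them 1 litter was near 0. Spin1, a chromatin reader of methylated histones, was at 474, 14.7 and 471 CPM. It was the most abundant of the 12 named by the rule, and litters 1 and 3 lay together with litter 2 at 32.3-fold less. Gbp6, an interferon-induced GTPase gene, was at 28.3, 0 and 20.6 CPM, and Rad9a, a DNA damage checkpoint protein gene, at 0.143, 18.5 and 28.3 CPM. Cavin3, a protein of caveolae, was at 97.0, 7.73 and 26.2 CPM, and Tex10, a nuclear protein gene, at 41.0, 3.62 and 30.9 CPM. Litter 2 was the lowest in 10 of these 12 genes and litter 1 in the rest. Among all genes with at least a 2-fold range the shares were 50.2% and 33.3%.

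Single litters also stood out upwards. Scap, the sterol-sensing escort of SREBP, was at 50.3, 8.61 and 13.0 CPM, highest in litter 1. Zfp110, a zinc finger gene, was at 8.19, 30.1 and 7.90 CPM, highest in litter 2. Procr, the endothelial protein C receptor, was at 46.3, 42.0 and 109 CPM, highest in litter 3. Downwards, Mycbp2, a ubiquitin ligase gene, was at 16.0, 77.3 and 57.1 CPM with litter 1 lowest, and Glod4, a glyoxalase domain gene, at 197, 196 and 91.0 CPM with litter 3 lowest. Each litter had 6 named genes beyond both others in each direction, by construction of the rule.

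At the other end stood genes with nearly the same level in every litter. Hps3, of lysosome-related organelle formation, lay between 8.19 and 8.23 CPM, the smallest CV at 0.272%. Mepce, which caps 7SK RNA, was at 60.5, 60.7 and 60.9 CPM, Abce1, a ribosome recycling factor, at 116, 117 and 116 CPM, and Gata2, a transcription factor of blood and endothelium, at a mean of 9.98 CPM with litter 3 lowest at 9.93 CPM. The CV of each of the 12 genes with the smallest values was at most 0.627%, that of Nudt1, an enzyme that clears oxidised nucleotides. In all 12 it lay below the CV that counting error alone gives, which was 2.96% for Abce1 and 11.1% for Hps3, so these values do not rank the 12 against each other.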

How the data were processed

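RNA of 3 vehicle litters was measured by TempO-Seq. The submitters' processing notes list STAR 2.7.8a, Partek and DESeq2 with the genome build rn7, but tie no tool to a table. The estimated counts are used as the authors deposited them, 1 value for each gene and library, and 83.0% of them are whole to a tolerance of 1e-09. A further deposited table holds the same counts with 16 genes multiplied by a constant factor, and these attenuation-adjusted counts are the basis here. The log2 CPM values that the authors deposited for 11624 genes served as an alternative.

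Rows were joined by gene identifier, since the order of rows differs between tables. Names were taken from the table, which names 15626 genes and leaves 2548 unnamed. CPM came from adjusted counts scaled by TMM over the vehicle libraries (edgeR 4.0.16, R 4.3.3). Spread was described for 11817 genes with a mean of at least 10 counts, which hold 99.8% of counts, and 6357 rows were left out. Log2 values used a pseudocount of 0.5 CPM. The dispersion came from edgeR on rounded counts with an intercept as the design, and was tested on simulated data. Intervals are not given, and floors of 3 counts cover counting error only. Separate dams gave the 3 litters, which the labels do not number, so they are numbered in the order of the samples.

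The 30 gene lists hold 643 symbols, and 133 of these have no row in the table. Genes were named by rule: the 25 highest means, the 16 adjusted genes, list members with the highest means first, and, at a mean of at least 50 counts, the 12 widest ranges, the 12 smallest CVs and the 6 genes furthest above and below both other litters for each litter. Identifiers without a name were passed over, 9 of them among the highest means and 6 among the widest ranges. The members and lists were chosen with earlier results of these data known. Promoter windows are those of RefSeq on GRCr8, matched by symbol, and were not compared with the rn7 positions. Alternatives covered the scaling, the adjustment, the count minimum, the pseudocount, the submitters' values and leaving out each litter.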

Additional observations from a re-analysis of the deposited data

How the results depend on the processing

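No paired analysis was possible because the 3 litters form 1 group and carry no replicate number in the labels. The common biological coefficient of variation, 0.269, lay between 0.189 and 0.344 when each litter was left out. The number of genes with at least a 2-fold range, 2029, was 1186 with a minimum mean of 50 counts, where fewer genes are counted, and 491 to 1699 when each litter was left out, where fewer litters are compared. Leaving out each litter gave distances between litter medians of 0.0976 to 1.06 for erythroid genes, 0.153 to 0.343 for gonocyte genes, 0.120 to 0.262 for matrix genes, 0.0677 to 0.154 for testosterone synthesis genes (0.195 with all) and 0.0475 to 0.194 for cholesterol genes (0.161 with all). Without the attenuation adjustment the 100 most abundant genes held 29.2% of counts in place of 29.8%, because the factors raise Eef1a1 and Fth1. With library totals alone the distance for cholesterol genes was 0.0960. The remaining scalings, minimums and pseudocounts moved none of these results beyond the spread between litters or, for counts, 1.5 times. Of 578 named gene levels, all 578 stayed within 1 SD with library totals alone, 21 moved further without the adjustment, and with the submitters' log2 CPM 12 moved further, 455 did not and 111 have no value there. No test for an outlying litter was made with 3 litters, and depth limits genes near 0.3 CPM.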

Other observations

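The following genes were picked after their values were seen. Of the pancreatic enzymes beside Cpa1, at 5347, 5589 and 6549 CPM in litters 1, 2 and 3, Ctrb1, chymotrypsinogen, was at 23.4, 5.58 and 6.09 CPM. Cpb1 was at 0, 0.0979 and 3.05 CPM, and Prss1, trypsinogen, Pnlip, pancreatic lipase, and Cel, a bile salt-dependent lipase, all stayed under 1 CPM in every litter.

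A set of 3 more abundant genes had a wide range in the order litter 1, then 3, then 2. That order was shared by 28.35% of all genes at the count minimum and 45.0% of those with at least a 2-fold range. Oscp1, named as a partner of organic solute carriers, was at 4453, 698 and 1538 CPM, rank 45. Idh2, mitochondrial isocitrate dehydrogenase, was at 488, 64.0 and 151 CPM. Uqcrc1, a core subunit of respiratory complex III, was at 132, 26.9 and 51.3 CPM. In contrast Tbx2, a T-box transcription factor, was at 510, 519 and 518 CPM, a CV of 0.956% at a mean of 5063 counts, where counting error alone gives 1.41%.

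Among receptors, Esr1, the estrogen receptor alpha, was at 131, 115 and 91.1 CPM and Esr2, the estrogen receptor beta, at 2.51, 1.17 and 1.35 CPM. Thra, the thyroid hormone receptor alpha, was at 175, 111 and 125 CPM. Rxfp2, the receptor for insulin-like peptide 3, was at 1.45, 0.881 and 1.02 CPM, against 2208, 5770 and 3398 CPM for Insl3. The immediate early gene Egr1 was at 77.0, 110 and 96.3 CPM, whereas Junb and Nr4a1 were under 1 CPM in every litter. The stress response factor Atf4 was at 111, 31.5 and 59.2 CPM, and the mitochondrial chaperonin Hspd1 had the reverse order, at 533, 1042 and 825 CPM.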
